A study of Mus musculus with 2 samples.

Results

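The Mir106b, Mir93 and Mir25 hairpins are 3 of the 2199 miRNA hairpins in the GENCODE mouse annotation, and they lie together in 1 intron of the gene Mcm7. Their members here are all reads of 18 nt or longer that lie in sense and without mismatch in one of these hairpins, 163 distinct sequences in all. They gave 93033 of 9943989 reads in the Dicer f/f library and 6460 of 6291599 reads in the Dicer -/- library. No read of the cluster matched another annotated hairpin or the other arm of its own.

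Both libraries hold small RNA of mesenchymal stem cells (MSCs), fibroblast-like cells from the bone marrow of adult mice, strain C57BL/6, kept as immortalized clonal lines. One line has the genotype Dicer f/f, named wild type in the labels. The other is Dicer -/-, called null below. Each genotype has 1 library from a clonal line, so clone, library and genotype cannot be told apart. No p-value is given, and every interval covers counting error only, at the 95% level.

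A miRNA is cut from its primary transcript in 2 steps. Drosha, with its partner Dgcr8, cuts the base of the hairpin in the nucleus and so sets the 5′ end of the 5p arm and the 3′ end of the 3p arm. Dicer then cuts near the terminal loop and sets the 3′ end of the 5p arm and the 5′ end of the 3p arm. The Mir106b cluster is a paralogue of the Mir17 to Mir92-1 cluster, and it is known for targets that restrain the cell cycle and promote cell death, among them Cdkn1a and Bcl2l11. Its host gene Mcm7 encodes a subunit of the replicative helicase.

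The hairpins sit on the minus strand of chromosome 5 in GRCm38, in the order Mir106b, Mir93, Mir25 along the transcript. Mir106b lies at chr5:138165737-138165818 and has 82 nt. Mir93 lies at chr5:138165523-138165610 and has 88 nt, and Mir25 lies at chr5:138165321-138165404 and has 84 nt. The gaps between them are 126 and 118 nt. All 3 are intronic, in intron 13 of the Mcm7 transcript of 15 exons (chr5:138165162-138165909, 748 nt). Their sequences from RefSeq, identical to those of the annotation, show the mature arms in capitals and, between those arms, the stretch with the terminal loop into which the longer reads of the null library extend.
Mir106b: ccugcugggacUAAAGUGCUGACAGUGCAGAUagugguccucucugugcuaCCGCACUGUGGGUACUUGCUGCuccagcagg
Mir93: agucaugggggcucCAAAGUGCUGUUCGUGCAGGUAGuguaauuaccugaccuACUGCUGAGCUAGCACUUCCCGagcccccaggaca
Mir25: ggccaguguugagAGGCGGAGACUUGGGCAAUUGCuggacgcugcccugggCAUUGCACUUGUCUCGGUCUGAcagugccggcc

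The mature sequences, also from RefSeq for GRCm38.p6, show which members share a seed. The seed, bases 2 to 8, is the part that pairs with target mRNAs and is in capitals. The 5p arms of Mir106b and Mir93 share the seed AAAGUGC and have the same base at 16 of 21 positions counted from the 5′ end. The 3p arm of Mir25 has the seed AUUGCAC of the miR-92 family.
miR-106b-5p: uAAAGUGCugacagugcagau
miR-93-5p: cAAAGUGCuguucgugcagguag
miR-25-3p: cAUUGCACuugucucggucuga
miR-106b-3p: cCGCACUGuggguacuugcugc
miR-93-3p: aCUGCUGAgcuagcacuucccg
miR-25-5p: aGGCGGAGacuugggcaauugc

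miRNA hairpins held 59.6% of the f/f reads and 2.17% of the null reads. Levels are in CPM, counts scaled to 1000000 reads of the library. All 9 hairpins of a mesenchymal list were above 100 CPM in f/f, and 4 of 6 hairpins of a pluripotent list had no read in f/f. Of a muscle list 1 of 3 hairpins was above 100 CPM in f/f, and of a haematopoietic list 1 of 4. The muscle list summed to 225 CPM (f/f) and 1.27 CPM (null), and the haematopoietic list to 134 and 12.6 CPM. The 1 endothelial hairpin had 33.5 CPM (f/f) and 2.07 CPM (null). The 9 mesenchymal hairpins summed to 216872 CPM (f/f) and 5564 CPM (null), and the 4 hairpins of an epithelial list to 3.62 CPM (f/f) and 36.4 CPM (null); the part of these markers in the results below was not tested. Where no read was seen, the floor of 3 counts is 0.302 CPM for f/f and 0.477 CPM for null.

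The whole cluster, at 9356 CPM in f/f, had 1027 CPM in the null library and was thus 9.11-fold lower there (8.88 to 9.35). The 3 hairpins of this 1 intron differed widely. Mir106b was 4.69-fold lower (4.56 to 4.82), Mir93 56.4-fold lower (51.2 to 62.3) and Mir25 504-fold lower (300.5 to 923). In f/f, Mir106b held 48.0% of the cluster's reads, Mir93 40.0% and Mir25 12.0%. In null, Mir106b held 93.3% (92.7 to 93.9), Mir93 6.46% (5.87 to 7.08) and Mir25 0.217% (0.119 to 0.363).

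Among the arms, miR-106b-5p had 42548 reads in f/f and 6021 in null, which is 4279 and 957 CPM. It was 4.47-fold lower in null (4.35 to 4.59). miR-93-5p had 36541 and 320 reads, or 3675 and 50.9 CPM, 72.2-fold lower (64.7 to 80.9). The pair that shares a seed therefore differed far more in null than in f/f: the null to f/f ratio of miR-106b-5p was 16.2 times that of miR-93-5p (14.4 to 18.2). miR-25-3p, the leading arm of Mir25, had 9954 reads in f/f and 2 in null, or 1001 and 0.318 CPM, 3149-fold lower (871 to 26006). The ratio of miR-93-5p was 43.6 times that of miR-25-3p (12.0 to 362), which rests on those 2 null reads.

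The minor arms did not follow their partners. miR-106b-3p had 2128 reads in f/f and 8 in null, 168-fold lower (85.3 to 390). miR-93-3p had 655 and 97 reads, 4.27-fold lower (3.45 to 5.34). With reads that carry untemplated 3′ bases counted too, its log2 ratio was -0.75 in place of -2.10. miR-25-5p had 1207 and 12 reads, 63.6-fold lower (36.3 to 124). The 5p arm of Mir93 held 98.2% of its hairpin's reads in f/f and 76.7% in null (72.4 to 80.7). For Mir25 the 5p share was 10.8% in f/f and 85.7% in null (57.2 to 98.2), the latter from 14 reads. For Mir106b it was 95.2% and 99.9%.

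Over matched reads, all 6 arms were more than 2-fold lower in null, and so were 89.8% of 295 miRNA species, those whose f/f count reached 100 reads, so this count says nothing particular about the cluster. The direction depends on the denominator for a pair of arms: per miRNA read of the library, miR-106b-5p and miR-93-3p were higher in null, with log2 ratios of 2.62 and 2.69. The same pair was less than 2-fold lower per read that matches a transcript, at -0.41 and -0.34, and miR-93-3p also with tailed reads counted. Over the 6 arms the log2 ratio, null over f/f, had a median of -6.08. Over the 295 species it was -5.58, with the 36 species that have no null read ranked lowest, or -5.18 with those set to 3 counts. In the order of ratios from low to high, miR-25-3p was at rank 38, miR-93-5p at rank 125, miR-106b-5p at rank 247 and miR-93-3p at rank 249 of 295. By reads, miR-106b-5p was at rank 23 of all species in f/f and at rank 5 in null, where it made up 4.41% of all miRNA reads.

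The 2 libraries differed in read length. In f/f, 98.6% of miR-106b-5p reads had 18 to 23 nt, with 19582 reads of 21 nt and 19390 of 22 nt. In null, 82.2% (81.2 to 83.2) had 24 nt or more, against 1.45% (1.34 to 1.57) in f/f. The commonest null length was 24 nt with 2351 reads, followed by 26 nt with 923 and 27 nt with 840. Reads of 27 to 32 nt numbered 8 in f/f and 1251 in null, 247-fold higher in null (125 to 574). Taken over all reads of 24 nt or more, miR-106b-5p was 12.7-fold higher in null (11.7 to 13.8), and over reads of 18 to 23 nt it was 24.7-fold lower (23.3 to 26.3).

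**Figure D1:**
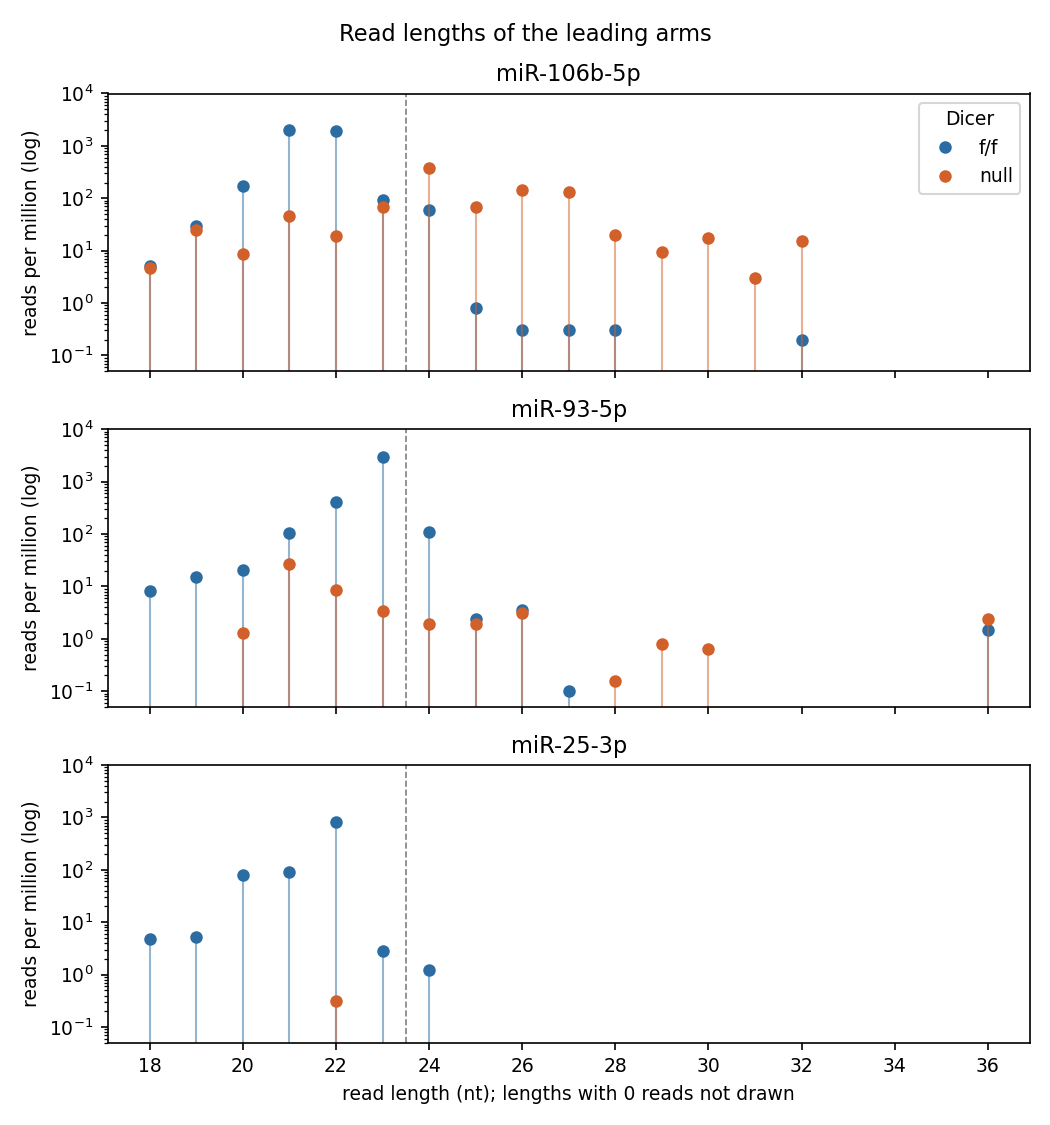
CPM (logarithmic axis) against read length in nt for miR-106b-5p, miR-93-5p and miR-25-3p, with f/f in blue, null in orange and a dashed line between 23 and 24 nt. From 24 nt up, the null points of miR-106b-5p lie above those of f/f, with 786.6 against 61.9 CPM in all, while those of miR-93-5p do so only from 28 nt.

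miR-93-5p was mostly short in both libraries. In f/f 29818 reads had 23 nt, and in null 167 of 320 had 21 nt. Reads of 24 nt or more made up 3.22% in f/f and 21.6% in null (17.2 to 26.5), and even these were 10.8-fold lower in null (8.47 to 14.0). With the boundary at 23 nt, the length of the main f/f form, the order turned, with 84.8% in f/f and 28.1% in null. At 18 to 23 nt it was 89.1-fold lower (78.7 to 101). There the ratio of miR-106b-5p was 3.60 times that of miR-93-5p (3.13 to 4.15), against 16.2 times over all lengths. miR-25-3p had 12 reads of 24 nt or more in f/f and none in null, and both null reads had 22 nt. For miR-25-5p, 8 of the 12 null reads were 24 nt or longer, against 3 of 1207 in f/f.

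Restricted to 18 to 23 nt, 94.2% of the 295 species were more than 2-fold lower in null, and all 6 arms were too, by 4.74-fold (miR-93-3p) to 3145-fold (miR-25-3p). Of the 109 species with at least 100 null reads, 70.6% had most of those reads at 24 nt or longer, and the median species had 75.1% there. miR-106b-5p was at rank 38 of the 109 by this share, from high to low, and miR-93-5p at rank 97.

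**Figure D2:**
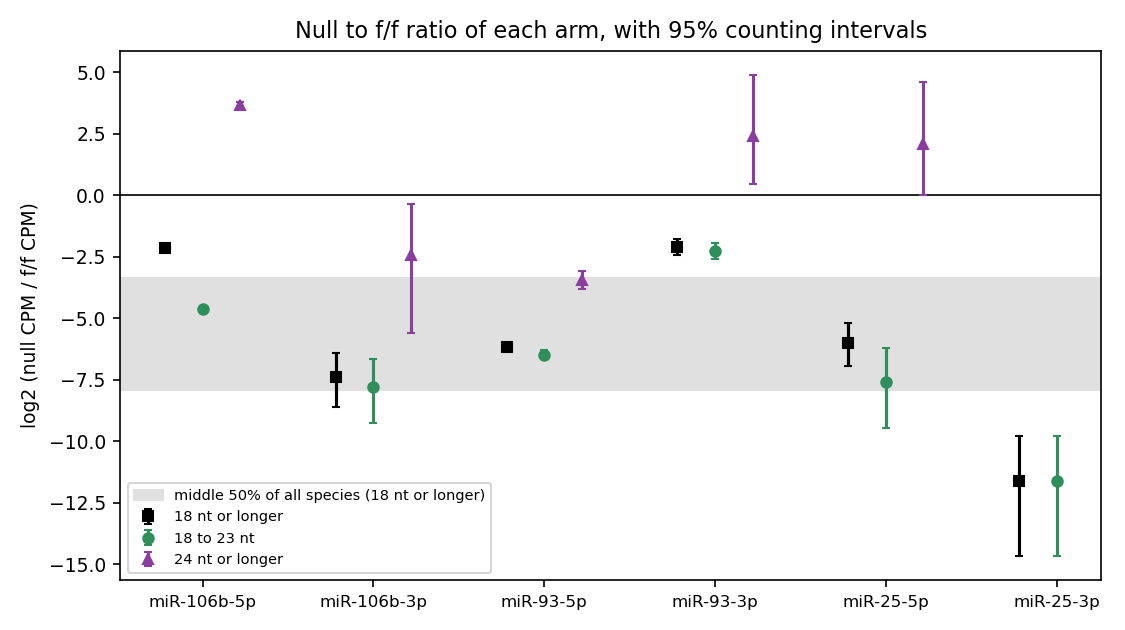
Log2 ratio of null to f/f CPM for each arm, over all reads of 18 nt or longer (squares), 18 to 23 nt (circles) and 24 nt or longer (triangles), with 95% counting intervals and the middle 50% of all 295 species in grey (-7.92 to -3.35). Squares and circles lie below 0 for all 6 arms, and the triangles of miR-106b-5p, miR-93-3p and miR-25-5p lie above it; miR-25-3p has no triangle because it had no null read of that length.

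The read ends show where the libraries part. At the 5′ end, 99.5% of f/f and 98.8% of null miR-106b-5p reads began at hairpin position 12, counted from the first base of the hairpin. The 3′ ends differed: 46.2% of f/f reads ended at position 32 and 45.7% at 33, against 4.75% and 1.93% in null. Null reads ended mostly at 35 (39.3%), 37 (15.7%) and 38 (14.1%), and 1.42% of f/f reads ended at 35. The leading sequences are shown with the bases beyond the mature end in capitals, which lie between the mature arms.
Position 12 to 32, 19530 reads in f/f and 286 in null: taaagtgctgacagtgcagat
Position 12 to 33, 19352 and 116: taaagtgctgacagtgcagatA
Position 12 to 35, 597 and 2350: taaagtgctgacagtgcagatAGT
Position 12 to 37, 3 and 915: taaagtgctgacagtgcagatAGTGG
Position 12 to 38, 3 and 838: taaagtgctgacagtgcagatAGTGGT

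All of these begin with the same base and seed, so the short and the long forms carry 1 seed. In a predicted fold of the Mir106b hairpin (RNAfold) the unpaired loop is positions 41 to 45. Of the miR-106b-5p reads, 2 in f/f and 231 in null ended inside it.

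miR-93-5p also kept its start and differed at its other end. Position 15 was the start of 97.3% of f/f and 95.3% of null reads. The 3′ end was at 37 for 83.7% of the reads of f/f but 6.56% of those of null (4.11 to 9.86). Null reads ended mostly at 35 (50.3%) and 36 (64 of 320 reads), inside the mature sequence, where miR-106b-5p reads of null ended beyond it. The shared seed is in each of the leading forms below, which are printed with bases beyond the mature end in capitals.
Position 15 to 35, 957 reads in f/f and 158 in null: caaagtgctgttcgtgcaggt
Position 15 to 37, 29774 and 21: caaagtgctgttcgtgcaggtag
Position 15 to 40, 35 and 20: caaagtgctgttcgtgcaggtagTGT

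miR-93-3p differed at both ends, and through its 5′ end its seed was shifted in null. In f/f 94.5% of reads began at position 54, the start of the mature sequence, and 0 of the 97 null reads did (0 to 3.73%). Null reads began mostly at 51 (57.7%) against 0.458% of f/f reads, and 23 null reads ran from 53 to 75. The leading forms of the libraries are printed to show that they begin at different bases, so that bases 2 to 8 are not the same.
Position 54 to 75, 303 reads in f/f and 0 in null: actgctgagctagcacttcccg
Position 53 to 75, 0 and 23: tactgctgagctagcacttcccg
Position 51 to 72, 1 and 23: cctactgctgagctagcacttc

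**Figure D3:**
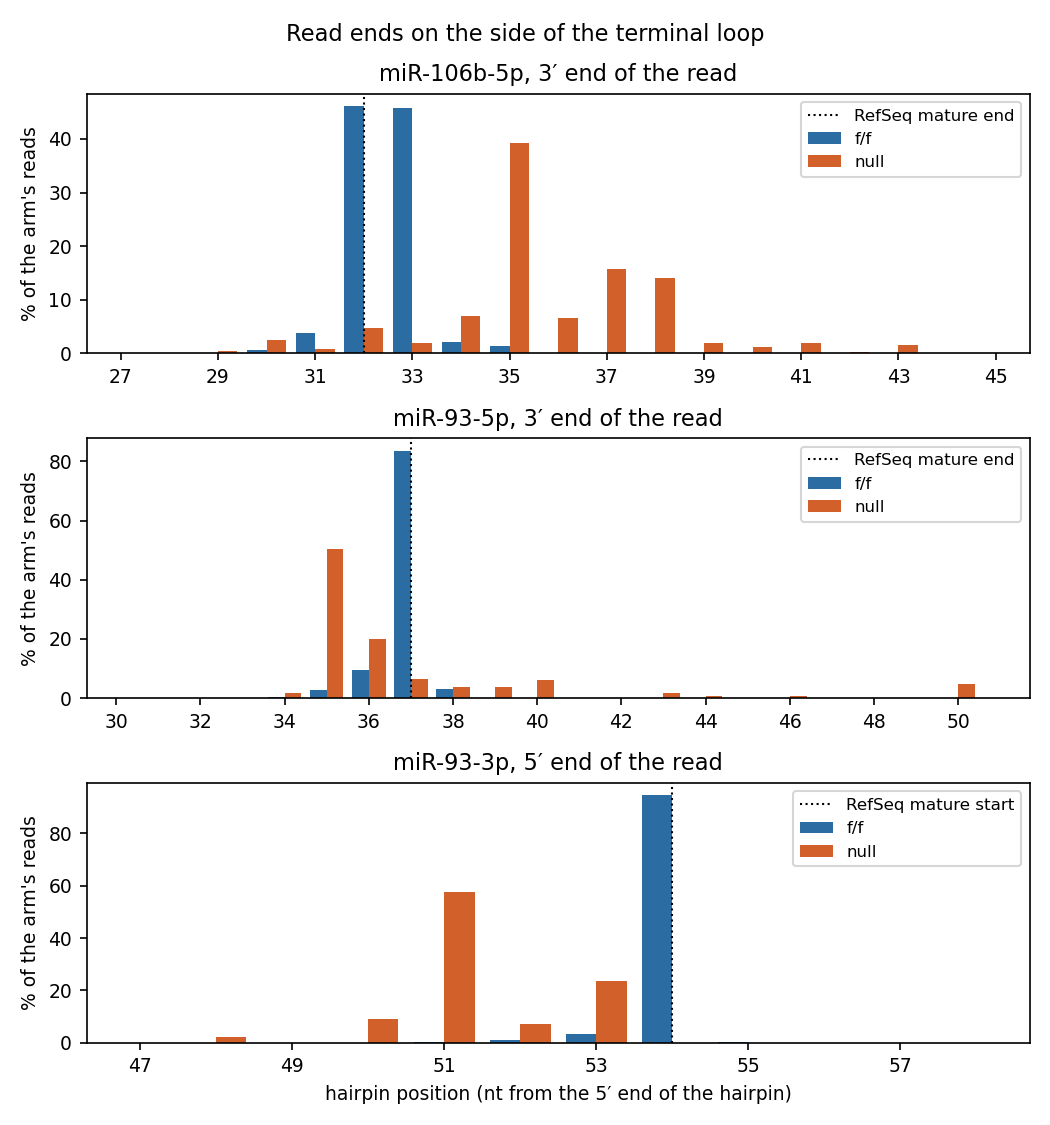
Percent of each arm's reads (0 at the base of each bar) against the hairpin position of the 3′ end for miR-106b-5p and miR-93-5p and of the 5′ end for miR-93-3p, with f/f in blue, null in orange and the RefSeq end or start dotted. The tallest null bars are at 35 for both 5p arms and at 51 for miR-93-3p, and the tallest f/f bars are at 32, 37 and 54.

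Untemplated bases at the 3′ end were counted on reads that match a hairpin only without their last 1 to 3 nt. Untemplated tails are added to small RNAs by terminal transferases. The rule also counts reads with a mismatch among their last 1 to 3 nt, such as a sequencing error, and these were not set apart. Of all miR-93-3p reads, tailed ones included, 15.5% (13.0 to 18.2) were tailed in f/f and 66.7% (60.9 to 72.1) in null, 194 tailed beside 97 matched reads. A single T made up 95.4% of the null tails. Of 30 3p species with at least 100 null reads, tailed reads included, 23.3% were tailed in most of their reads. The median was 20.7%, and miR-93-3p was at rank 5. With 97 matched reads, miR-93-3p passed this minimum only through its tailed reads. The set was thus partly selected on the trait that is ranked, and the rank only describes it. The commonest tailed reads, with the tail in capitals, all ended at position 72 before the tail.
113 reads in null and 0 in f/f: cctactgctgagctagcacttcT
51 and 1: acctactgctgagctagcacttcT

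The 5p arms had lower tailed shares. miR-106b-5p had 9.74% (9.47 to 10.0) in f/f and 6.80% (6.19 to 7.44) in null, and miR-93-5p had 11.4% (11.1 to 11.7) and 10.9% (7.84 to 14.6). Of the 439 tailed miR-106b-5p reads of null, the commonest sequences were the form that ends at position 36 with an added T (111 reads) or A (90 reads), against 3 and 0 in f/f. For miR-25-3p 16.8% of f/f reads were tailed, and no tailed read was seen in null.

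A separate product of Mir106b was its excised loop, the 18 nt from position 34 to 51 that lie between a 5p end at 33 and a 3p start at 52. It had 251 reads in f/f and 0 in null, with a null to f/f ratio of 0 (0 to 0.0234). With the floor of 3 counts in place of the 0, it was 52.9-fold lower. The midpoint rule counts it with the 3p arm. With arms set instead by overlap with the mature sequences, miR-106b-3p had 1877 reads in f/f and 4 in null, 297-fold lower (116 to 1091). The 15-nt loop of Mir25, shorter than the length minimum, had 14 reads in f/f and 0 in null, and the 16-nt loop of Mir93 had none in either.
Mir106b loop: gtggtcctctctgtgcta

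Reads that span an edge of the annotated hairpins, read against a retained-intron transcript that covers this part of the Mcm7 intron, were commoner in null. They lie only partly inside a hairpin and so are not members of the cluster. Just before miR-25-5p, 6 sequences had 25 reads in f/f and 243 in null, 15.4-fold higher in null (10.2 to 24.2). All 243 null reads and 24 of 25 f/f reads ended at the base next to the first base of miR-25-5p, and none of the 6 sequences matched another gene. All mRNA and lncRNA fragments together were 4.81-fold higher in null. Just after miR-25-3p 1 sequence had 0 and 7 reads, and just before miR-93-5p 5 sequences had 5 and 10. For the latter the null to f/f ratio was 3.16, and its interval (0.984 to 11.8) includes no difference. After miR-93-3p 1 sequence had 1 read in f/f and 0 in null. The flank of Mir106b was not analysed here. In the leading reads, capitals mark the part inside the annotated hairpin.
Before miR-25-5p, chr5:138165392-138165411, 6 reads in f/f and 131 in null: cgggactGGCCAGTGTTGAG
After miR-25-3p, chr5:138165311-138165331, 0 and 7: CAGTGCCGGCCcaacactgca

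**Figure D4:**
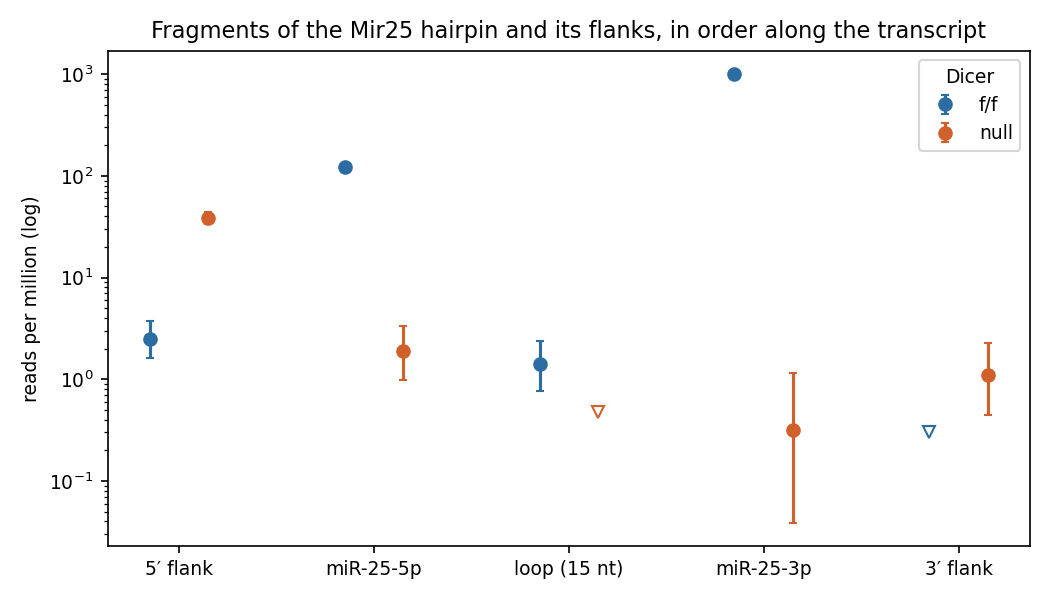
CPM (logarithmic axis) of the Mir25 hairpin's fragments in order along the transcript, f/f in blue and null in orange, with 95% Poisson intervals and open triangles for the floor of 3 counts where no read was seen. The null library lies above f/f in both flanks (38.6 against 2.51 CPM in the 5′ flank) and below it in both arms.

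Fragments of mRNAs give a check of the host and the pathway. Mcm7 fragments numbered 32 in f/f and 305 in null, 15.1-fold higher in null (10.4 to 22.4), most of them the reads before miR-25-5p. The spliced mRNA of 15 exons alone had 1 and 32 reads. Fragments of Dicer1 were 4.35-fold higher in null and those of Ago2, which binds mature miRNAs, 5.20-fold. Of 10 genes of the miRNA pathway, Dicer1 and Ago2 among them, 9 had more CPM in null. This says nothing particular about the pathway, since mRNA and lncRNA fragments as a whole were 4.81-fold higher. Prkra, a Dicer partner, had 4 reads in f/f and 0 in null, and the interval of its null to f/f ratio (0 to 2.39) includes no difference. Textbook targets of the family also had few reads. The cell cycle inhibitor Cdkn1a had 32 in f/f and 72 in null, 3.56-fold higher in CPM in null (2.31 to 5.57). The cell death gene Bcl2l11 had 3 and 22, 11.6-fold higher (3.48 to 60.5). The cell cycle transcription factor E2f1 had 38 and 41, 1.71-fold higher (1.07 to 2.72). These are fragments of 18 to 36 nt and not a measure of mRNA level.

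Within its seed family miR-106b-5p took a larger share in null. Reads with 1 base before the seed AAAGUGC numbered 129617 in f/f and 6770 in null. miR-106b-5p gave 32.6% of them in f/f and 87.9% in null, miR-93-5p 27.4% and 4.51%, miR-20a-5p 22.1% and 6.63%, and miR-17-5p 17.8% and 0.990%. For the seed AUUGCAC the reads numbered 25830 and 84. miR-25-3p gave 37.7% in f/f and 2.38% in null, the shared miR-92 3p species 60.1% and 28.6%, and miR-32-5p 0.647% and 69.0%.

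The paralogous clusters showed a like spread between arms. In the Mir17 to Mir92-1 cluster 9 of the 10 species that reached 100 f/f reads were over 2-fold lower, with a median log2 ratio of -5.27. Its arms ran from miR-92-3p, 397-fold lower (269 to 614), to miR-18-5p, 7.67-fold lower (7.13 to 8.27), and miR-19b-5p, whose fold of 1.04 (0.815 to 1.32) is within counting error of no difference. As in Mir25, the 3p arm with the seed AUUGCAC had the lowest ratio of its cluster, with 25 null reads and none of 24 nt or more. The interval of miR-18-3p (336-fold, 92.9 to 2780, from 2 null reads) overlaps with that of miR-92-3p. Of the Mir106a to Mir363 cluster 4 species had at least 100 f/f reads, all of them joined with copies in the Mir17 cluster, and 3 were more than 2-fold lower. Its own miR-106a-5p had 4 reads in f/f and 0 in null, and miR-20b-5p had 1 and 0. Since 89.8% of all 295 species were over 2-fold lower, the counts of such species say nothing particular about these 2 clusters.

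The nearest species in log2 ratio were sought among 157 with at least 1000 f/f reads, leaving out the cluster's own arms and species without null reads. Species without null reads have no log2 ratio. Those such as miR-129-3p (3400 reads in f/f and 0 in null) could therefore not be named beside miR-25-3p. For miR-106b-5p (-2.16) they were the joined Gm26092/669a/669p-5p species (-2.06) and miR-7-5p (-2.04). For miR-93-5p (-6.17) they were miR-669o-5p (-6.17) and let-7g-5p (-6.13). For miR-25-3p (-11.62) they were miR-129-5p (-11.99, from 1 null read) and miR-22-3p (-10.99). By the lengths of the null reads, from 18 to 36 nt, miR-322-5p was nearest to miR-106b-5p among 109 species, with a total variation distance of 0.106, where 0 means the same profile and 1 no overlap. For miR-93-5p the nearest was miR-6539-5p at 0.230, a larger distance.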

How the data were processed

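The authors deposited raw counts, 1 file per library, each listing distinct read sequences of 5 to 36 nt with the number of times each was read; which trimming and alignment tools made them is not given in the sources used. The submitters' processing notes name the build mm9, and coordinates here are GRCm38 positions of GENCODE M21. Per the labels' protocols, a 15% gel was used to select RNA of 15 to 50 nt. Reads of 18 nt or longer were matched in sense without mismatch, miRNA hairpins first. The arm is the side of the hairpin midpoint that holds the read's middle. CPM were computed over all 9943989 (f/f) and 6291599 (null) reads. Shares carry Clopper-Pearson intervals, counts Poisson intervals and ratios exact conditional intervals; reads without molecular identifiers are not independent molecules. No 35-nt read occurs in either file and few of 34 nt, so inserts of 33 to 35 nt may appear as unmatched 36-nt reads; in null the first 33 to 35 nt of 74 such reads matched Mir106b and of 7 matched Mir93.

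Named are all 6 arms, sequences among the leading 3 of a library or with at least 5% of an arm (a selection is printed), the nearest species in ratio or length profile, and the paralogous clusters. One gene of the target list is not reported here. The members and lists were chosen with earlier results of these data known. Counts of loops, flanks, tails, folds and 36-nt reads, the arm by overlap of at least 15 nt for ratios, and the merging of hairpin copies into 1 species were chosen after the reads were seen; with copies kept apart, 276 of 314 species were more than 2-fold lower. Matching and intervals were tested on simulated data. Python 3.11.15, numpy 2.4.6, scipy 1.17.1, matplotlib 3.10.9 and RNAfold 2.7.2 were used. Alternatives changed the denominator, read lengths, minimum copies, matching and arm rule.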

Additional observations from a re-analysis of the deposited data

How the results depend on the processing

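No paired analysis was possible because each genotype has 1 library. Values are log2 ratios of null to f/f unless named. Another denominator shifts every ratio by a constant, +1.75 per read that matches a transcript, -2.12 per snoRNA and snRNA read and +4.78 per miRNA read, so differences between members keep their size. Per transcript-matched read miR-106b-5p stood at -0.41 and miR-93-5p at -4.42; per snoRNA and snRNA read they stood at -4.28 and -8.29; per miRNA read they stood at 2.62 and -1.39, with miR-93-3p at 2.69 and miR-25-3p at -6.84. At 18 to 23 nt the values were -4.63 for miR-106b-5p and -6.48 for miR-93-5p. At 24 nt or longer they were 3.67 for miR-106b-5p, -3.43 for miR-93-5p, 2.40 for miR-93-3p and 2.08 for miR-25-5p, the last from 3 and 8 reads; miR-25-3p gave no value there, with 0 null reads. With untemplated 3′ bases allowed, miR-93-3p stood at -0.75, less than 2-fold lower.

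The log2 ratio between the members' ratios at 18 to 23 nt was 1.85 for miR-106b-5p against miR-93-5p (4.01 over all lengths) and 6.99 for miR-106b-5p against miR-25-3p (9.46). The null share of long miR-106b-5p reads was 43.1% from 25 nt and 89.3% from 23 nt, and that of miR-93-5p 28.1% from 23 nt, where f/f had 84.8%, so that the order of the libraries turned. Within 1 nt of the commonest f/f end, null shares were 99.7% at the 5′ and 7.46% at the 3′ end of miR-106b-5p, and 99.4% and 30.3% for miR-93-5p. By overlap the 5p share of Mir106b in f/f was 95.8%. With a minimum of 1000 reads in f/f, 151 of 157 species were over 2-fold lower. Of 178 alternatives computed, 59 were of an arm's ratio, and 5 of these 59 reversed its direction, all given above. A share could not count as reversed, so the turn of miR-93-5p from 23 nt is not among the 5. Without reversal, 20 alternatives of leading results and 41 of other results moved the value beyond the limit set for it. For ratios and shares that limit was the counting interval. The depth limits miR-25-3p, miR-25-5p and miR-106b-3p, which have 2, 12 and 8 null reads.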
